A study of Mus musculus with 4 samples.

Results

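Wnt signalling was examined at its outer layer, through the Wnt ligands, their receptors and the secreted proteins that modulate them, with 3 genes of the nuclear end of the pathway added. Members were chosen by gene symbol and not by a rule on their values, though earlier results of these data were known. They were 19 Wnt ligands, 4 R-spondins, 3 Lgr receptors, 10 Frizzled receptors, and Lrp5 and Lrp6. Added to these were 5 secreted Frizzled-related proteins with Wif1, 4 Dickkopf proteins, and Axin2, Lef1 and Tcf7. All members together made 51 of 30458 named genes and 64 of 39429 probes. Expression was measured in 4 mouse samples on Agilent single-colour arrays, 1 array per group. The first group was a ligament-like tissue obtained from mesenchymal stem cells of C3H mouse embryos by transfecting a mouse gene called A in the plasmid pCAGGS, and its reference was the stem cells themselves. The other pair was ligament of C57BL/6J mice transgenic for A, made by introducing that plasmid into fertilised eggs, and ligament of wild type C57BL/6J mice. The CAG promoter of pCAGGS is active in most cell types, so A was not limited to ligament cells by its promoter. Gene A is not named by the labels, so its level could not be checked. Strain and origin differ together between the cell-derived samples and the ligaments, and cannot be told apart. Age, the number of animals and any pooling are not given in the sources used here.

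Wnt proteins are secreted lipid-modified ligands that bind Frizzled receptors together with the co-receptors Lrp5 and Lrp6, which lets beta-catenin accumulate and act in the nucleus with factors of the Lef/Tcf family. Some ligands, such as Wnt5a and Wnt11, act mainly through routes that do not need beta-catenin. R-spondins bind Lgr receptors and raise the amount of Frizzled at the cell surface. Secreted Frizzled-related proteins and Wif1 bind Wnts outside the cell, and Dkk1 blocks Lrp5 and Lrp6. In the skeleton this pathway is known for its part in bone formation and joint development.

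Levels are given as normalised signal, the log2 processed signal of a probe minus the 75th percentile of its array, so that 0 is the brightness of the 75th percentile probe. A gene with several probes is represented by its brightest one. Since probes differ in how well they bind, levels are compared between arrays for 1 gene and never between genes. Repeated spots of 1 probe varied by an SD of 0.07 (log2) on the tissue array, 0.18 on the stem cell array, 0.11 on the transgenic array and 0.10 on the wild type array. A member measured on both arrays of a comparison had an error of its difference, from the scanner software's own error per spot, between 0.20 and 0.43 over the 4 comparisons. This error covers the scan of a spot and not the spread between cultures or animals, which 1 array per group does not measure. No test between groups was therefore made. A difference of at least 2-fold is called higher or lower as a rule of size. The lowest signal well above background lay at -5.55 on the tissue array and -5.64 on the stem cell array. It lay at -3.84 on the transgenic and -3.34 on the wild type array. Before scaling these limits were signals of 43.3, 21.1, 20.3 and 26.9, in the same order. The 75th percentile lay at signals of 2026, 1055, 291 and 273. The lower limits of the cell-derived samples thus come from the scaling and not from deeper detection. Folds between cell-derived samples and ligaments rest on this scaling too.

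The labelled tissues were set against markers. Of 12 ligament and tendon markers, 9 were well above background in the transfected tissue and 10 in the stem cells, and 12 in transgenic ligament and 11 in wild type ligament. Both ligaments also held RNA of other tissues: 20 and 19 of 21 skeletal muscle markers were well above background in transgenic and wild type ligament, against 7 in the transfected tissue and 12 in the stem cells. Summed on the linear scale of the normalised signal, the skeletal muscle markers reached 10780 in transgenic and 11814 in wild type ligament. The ligament and tendon markers reached 360 and 271 in the same ligaments. The muscle sum was the largest of any marker list in both ligaments. Probes differ in how well they bind, so these sums do not give the share of each tissue. In bulk RNA, fewer cells of a type and less RNA per cell cannot be told apart.

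Of the 51 members, 27 were well above background in the transfected tissue, 29 in the stem cells, 31 in transgenic ligament and 26 in wild type ligament. There were 18 members detected on all 4 arrays: Wnt1, Wnt4, Wnt5a, Wnt5b and Wnt9a among the ligands, Rspo3, the receptors Fzd1, Fzd2, Fzd4, Fzd7 and Fzd9, Lrp5, Lrp6, the secreted Frizzled-related genes Frzb, Sfrp2 and Sfrp4, Dkk3, and Lef1. Another 6 were seen on cell-derived arrays only, namely Wnt7b, Rspo2, Fzd3, Fzd5, Sfrp1 and Tcf7. In contrast, 8 were seen on ligament arrays only, namely Wnt8b, Wnt10a, Fzd10, Lgr6, Sfrp5, Wif1, Dkk1 and Dkk2. Fzd8, Lgr4, Lgr5, Rspo1, Wnt6 and Wnt11 were seen on 3 arrays, of both kinds, which brings the members detected on 1 to 3 arrays to 20. The remaining 13 were on no array well above background: the ligands Wnt2, Wnt2b, Wnt3, Wnt3a, Wnt7a, Wnt8a, Wnt9b, Wnt10b and Wnt16, then Rspo4, Fzd6, Dkk4 and Axin2. Thus 9 of 19 ligands were undetected throughout, while both LRP co-receptors were detected everywhere. Rspo2 (6.42 in the transfected tissue and 5.15 in the stem cells), Sfrp1 (1.28 and 1.41) and Fzd3 (-0.80 and -0.66) stood above the ligament arrays' detection limits. Fzd5, at -3.11 and -3.98, stood above them in the tissue only. For Wnt7b and Tcf7, being seen on a cell-derived array only depends on the lower scaled limit there. Wnt7b, at -4.08 in the stem cells, read -3.89 in transgenic and -4.46 in wild type ligament and was dim in both. Tcf7, at -3.99 in the stem cells, read -4.47 and -3.59 there, also dim. How many of all genes were seen on one kind of array only was not counted.

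**Figure D1:**
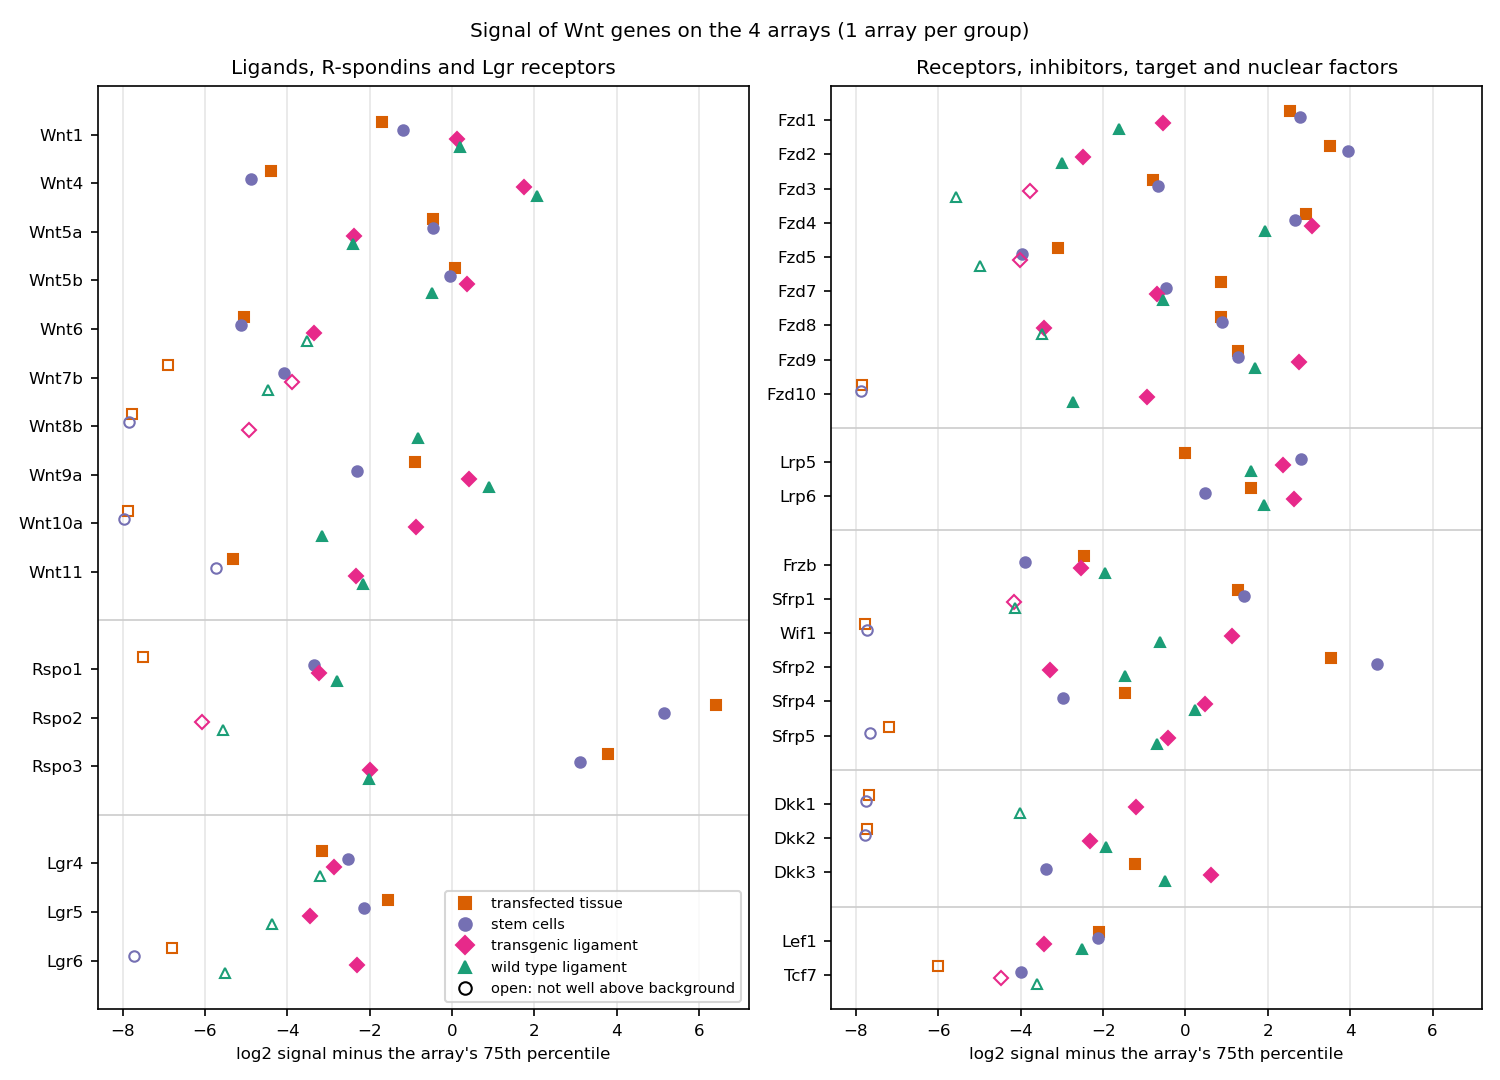
Normalised signal (log2 processed signal minus the 75th percentile of the array, horizontal axis) of the 38 members well above background on at least 1 of the 4 arrays, grouped by role, with 1 point per array. Open points mark spots not well above background; Sfrp2 stands at 3.52 in the transfected tissue and 4.66 in the stem cells, and at -3.28 in transgenic and -1.47 in wild type ligament.

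At the nuclear end, Axin2, a feedback inhibitor and widely used target of beta-catenin signalling, was not well above background by either of its probes on any array. Lef1, a DNA-binding partner of beta-catenin, had -2.10 in the transfected tissue and -2.12 in the stem cells, and -3.43 in transgenic and -2.52 in wild type ligament. The cell-derived pair differed by 0.03 ± 0.21, and the ligament pair by -0.91 ± 0.34, within 2-fold as reported but past it with quantile normalization and with the deposited values (range over settings -1.26 to -0.43). Tcf7, another factor of this family, read -6.02 in the transfected tissue and -3.99 in the stem cells, the only array where it was well above background; the tissue was at least 2.96-fold lower. One of its probes was used and the other was dim on all arrays.

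The letters CTTTGAT, a core of the sequence that Lef/Tcf factors bind, were looked for on both strands of the 250 bases before each start site in the RefSeq promoters of build GRCm38.p6. They stood in 1053 of 32851 windows (3.21%). Of the 51 members, 34 had a window in the table, and 2 of these 34 genes held the letters (5.88%), against 3.72% of all 27025 genes. The matches were in Wnt11 and Wnt5b. They were absent from the window of Axin2 (chr11:108920099-108920348, plus strand), from the 4 windows of Lef1 (the most upstream at chr3:131110047-131110296, plus strand) and from the 2 of Tcf7. The match of Wnt11 (chr7:98834862-98835111, plus strand) starts 51 bases before the start site and reads ATCAAAG, the reverse complement. That of Wnt5b (chr6:119449387-119449636, minus strand) starts 71 bases before the start site. These 4 windows are shown 5′ to 3′, the matches for the letters found and Axin2 and Lef1 as the pathway's target and factor without them; capitals mark the match.
Wnt11: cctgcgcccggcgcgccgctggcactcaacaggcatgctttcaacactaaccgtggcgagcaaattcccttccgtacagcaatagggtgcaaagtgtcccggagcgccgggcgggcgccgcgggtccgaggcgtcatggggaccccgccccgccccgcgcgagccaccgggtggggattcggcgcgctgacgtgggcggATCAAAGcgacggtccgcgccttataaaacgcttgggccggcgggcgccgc
Wnt5b: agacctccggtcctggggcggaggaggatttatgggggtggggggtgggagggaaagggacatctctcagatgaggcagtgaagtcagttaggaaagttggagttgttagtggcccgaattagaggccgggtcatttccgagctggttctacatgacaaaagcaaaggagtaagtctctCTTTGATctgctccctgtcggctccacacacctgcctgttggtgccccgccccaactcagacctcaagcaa
Axin2: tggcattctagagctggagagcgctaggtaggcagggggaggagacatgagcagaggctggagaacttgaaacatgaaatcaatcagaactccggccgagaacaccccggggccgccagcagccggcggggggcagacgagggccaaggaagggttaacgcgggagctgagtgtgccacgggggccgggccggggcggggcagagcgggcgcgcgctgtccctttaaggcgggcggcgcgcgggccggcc
Lef1: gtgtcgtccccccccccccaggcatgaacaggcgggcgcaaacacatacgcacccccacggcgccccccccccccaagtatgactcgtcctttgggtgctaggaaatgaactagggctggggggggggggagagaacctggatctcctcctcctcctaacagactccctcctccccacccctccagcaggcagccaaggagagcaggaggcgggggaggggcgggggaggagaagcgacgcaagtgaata
A match is a run of letters and was not tested as a binding site. Wnt5b was within 2-fold in all 4 comparisons. Wnt11 was at least 11.2-fold higher in wild type ligament than in the stem cells, and 8.85-fold lower in the transfected tissue than in that ligament. In the other comparisons Wnt11 did not reach 2-fold.

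The first comparison asked which members differ between the stem cells and the tissue obtained from them after transfection with A. Of 11 ligament and tendon markers compared, 1 was higher and 3 were lower in the tissue (median -0.10). Several extracellular modulators differed together with the LRP co-receptors: Dkk3, Sfrp4, Frzb, Wnt9a, Fzd7, Rspo2 and Lrp6 were higher in the transfected tissue, and Lrp5, Sfrp2, Rspo1, Tcf7 and Wnt7b were lower. In all, 7 of 30 members compared were higher (23.3%, against 11.3% of the 17900 genes compared) and 5 were lower (16.7%, against 12.9%). Both directions together came to 40.0% of members, against 24.2% of genes. The 26 members measured on both arrays had a median difference of 0.09, against -0.05 over 15790 genes.

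Among the ligands, Wnt9a, which takes part in joint formation, had -0.90 in the transfected tissue and -2.31 in the stem cells, a 2.67-fold difference (log2 1.42 ± 0.21). Wnt7b, a ligand of epithelia and bone, read -6.89 in the tissue and -4.08 in the stem cells, the only array where it was well above background, and was at least 2.77-fold lower in the tissue. The non-canonical ligand Wnt5a was nearly level, at -0.45 in the tissue and -0.47 in the stem cells, and Wnt5b was at 0.07 and -0.04. Of 8 ligands compared, 6 thus did not reach 2-fold.

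The R-spondins went different ways. Rspo2 had 6.42 in the tissue and 5.15 in the stem cells, 2.42-fold higher in the tissue (log2 1.27 ± 0.20). Quantile normalization gave 2.10 and the deposited values 1.96 on the log2 scale. Its probe lies at chr15:42852727-42852786 on the minus strand of mm9. Rspo1 (probe at chr4:124686270-124686329, plus strand) was dim in the tissue, at -7.49, and seen in the stem cells, at -3.36, so it was at least 4.57-fold lower in the tissue. Rspo3, at 3.79 and 3.11, differed by 0.69 ± 0.20, within 2-fold.

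The co-receptors also differed in opposite directions. Lrp5 had -0.01 in the transfected tissue and 2.79 in the stem cells, 7.01-fold lower in the tissue (log2 -2.81 ± 0.20), the largest difference among members measured on both arrays. Its probe lies at chr19:3584971-3585030 on the minus strand of mm9. Lrp6 had 1.58 and 0.47 in the same order, 2.16-fold higher (log2 1.11 ± 0.20), within 1 error of 2-fold, and its other probe differed by 0.01. Among the Frizzled genes only Fzd7, at 0.86 in the tissue and -0.48 in the stem cells, passed 2-fold (2.53-fold, log2 1.34 ± 0.20), and its other probe differed by -0.13. The calls of Lrp6 and Fzd7 therefore rest on 1 of 2 measured probes.

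Among the secreted inhibitors, Dkk3, a divergent Dickkopf protein, had -1.23 in the tissue and -3.39 in the stem cells, 4.46-fold higher in the tissue (log2 2.16 ± 0.22; probe at chr7:119259556-119259615, minus strand, mm9). Sfrp4 had -1.47 and -2.97 in that order, 2.83-fold higher (log2 1.50 ± 0.21). Frzb, a Wnt antagonist first known from cartilage, had -2.45 and -3.91, 2.74-fold higher (log2 1.45 ± 0.23).

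Sfrp2 differed the other way, with 3.52 in the tissue and 4.66 in the stem cells, 2.20-fold lower in the tissue (log2 -1.14 ± 0.20), within 1 error of 2-fold. Sfrp1 was within 2-fold, at 1.28 in the tissue and 1.41 in the stem cells. The family thus had 2 members higher, 1 lower and 1 within 2-fold of the 4 compared. Beside these differences, 15 of 16 cell cycle genes were lower in the tissue (median -3.20) and 5 of 8 adipocyte markers were higher. Stromal markers were lower in 3 of 9 cases and smooth muscle markers in 3 of 5 (medians -0.78 and -1.41). Their part in the differences was not tested.

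In the wider pathway fewer genes passed 2-fold than the 24.2% of all genes, though the lists are small and this was not tested. Of 32 genes of signal transduction, 1 was higher and 4 were lower (median 0.00), with Btrc, a subunit of the ubiquitin ligase that removes beta-catenin, 3.04-fold higher and the scaffold Apc at log2 -1.27. Ctnnb1, which encodes beta-catenin, differed by 0.04. Of 18 genes of Wnt secretion and other surface proteins compared, 2 were lower (median -0.41, against -0.05 over all genes), among them the receptor Ror2 (3.15-fold lower). Of 17 feedback and target genes compared, 2 were higher, although the list's median was -0.40: Dact1, which binds Dishevelled, 4.65-fold and Nkd2, an inhibitor of Dishevelled, 2.68-fold.

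The second comparison set ligament of A-transgenic mice against that of wild type mice. Fzd1, Fzd4, Fzd9 and Fzd10 (4 of 7 Frizzled genes compared), Dkk1 and Dkk3 (2 of 3 Dickkopf genes), Wif1, Wnt10a and Lgr6 were higher in transgenic ligament, and Sfrp2 and Wnt8b were lower. Of 32 members compared, 9 were higher (28.1%, against 5.98% of the 16973 genes compared) and 2 were lower (6.25%, against 7.01%, so near the share of all genes). Both directions came to 34.4% of members and 13.0% of genes. The 25 members measured on both arrays had a median difference of 0.23, against -0.07 over 14579 genes. Of the 8 measured members past 2-fold, 4 (Dkk3, Fzd1, Fzd4 and Fzd9) lay within 1 error of it.

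Wnt10a, a ligand of skin appendages and teeth, had -0.87 in transgenic and -3.17 in wild type ligament, 4.93-fold higher in transgenic ligament (log2 2.30 ± 0.33; probe at chr1:74850633-74850692, plus strand, mm9). The wild type value lay close to that array's detection limit of -3.34. Wnt8b was dim in transgenic ligament, at -4.94, and read -0.82 in wild type ligament, at least 8.11-fold lower in transgenic ligament, but this rests on 1 spot, and its other probe was dim on every array. The other 7 ligands compared did not reach 2-fold. Wnt4 had 1.76 in transgenic and 2.05 in wild type ligament by its brightest probe, while its second probe differed by -1.17.

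Frizzled genes were higher in 4 of 7 cases. Fzd10 had -0.94 in transgenic and -2.73 in wild type ligament, 3.48-fold higher (log2 1.80 ± 0.28). Fzd4 had 3.06 and 1.92 in that order (2.20-fold), Fzd9 had 2.75 and 1.69 (2.08-fold), and Fzd1 had -0.56 and -1.61 (2.08-fold). None of the 7 was 2-fold lower, and Fzd7, at -0.69 in transgenic and -0.54 in wild type ligament, differed by -0.15 ± 0.21.

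Both co-receptors lay above the wild type level but within 2-fold. Lrp5 had 2.37 in transgenic and 1.58 in wild type ligament (log2 0.79 ± 0.20), and Lrp6 had 2.62 and 1.90 (log2 0.72 ± 0.20); the second Lrp6 probe differed by 1.10. Lgr6, an R-spondin receptor of skin stem cells, was seen in transgenic ligament at -2.31 and not in wild type ligament, at least 2.06-fold higher, by 1 of its 2 probes. Neither R-spondin compared reached 2-fold.

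Wif1 had 1.13 in transgenic and -0.62 in wild type ligament, 3.36-fold higher (log2 1.75 ± 0.21; probe at chr10:120537079-120537138, plus strand, mm9). Dkk1 was seen in transgenic ligament at -1.20 and not in wild type ligament, at least 4.43-fold higher (probe at chr19:30621424-30621483, minus strand). Dkk3 had 0.62 and -0.49 in that order, 2.15-fold higher (log2 1.10 ± 0.21).

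Sfrp2 had -3.28 in transgenic and -1.47 in wild type ligament, 3.51-fold lower in transgenic ligament (log2 -1.81 ± 0.31; probe at chr3:83577864-83577923, plus strand, mm9). Dkk2, Sfrp4, Sfrp5 and Frzb differed by between -0.56 and 0.26. Dkk3, higher, and Sfrp2, lower, were called in both comparisons of A, which share no array. They are 2 of the 18 members measured in both (11.1%), against 183 of 13020 genes called alike in both (1.41%). Neither kept both calls under all settings: Sfrp2 was not called in the transfected tissue with quantile normalization or the deposited values, and neither was called between the ligaments with the model-based background correction.

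Markers of other tissues differed between the ligaments as well. In transgenic ligament 11 of 14 epidermal markers (median 1.69), 6 of 8 bone markers (1.78), 5 of 11 cartilage markers (1.06) and 9 of 12 ligament markers (1.52) were higher. Conversely, 13 of 13 neutrophil markers (-2.42), 7 of 8 erythroid markers (-2.16), 7 of 9 lymphoid markers (-1.26) and 7 of 14 cell cycle genes (-0.93) were lower. Smooth muscle markers were higher in 3 of 6 cases (1.24). The summed linear level of the epidermal markers, relative to the array's 75th percentile, was 227 in transgenic and 57.6 in wild type ligament, and that of the bone markers 223 and 56.8, with Sost, Sp7 and Runx2 dim in both. The part of these tissues in the Wnt values was not tested.

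**Figure D2:**
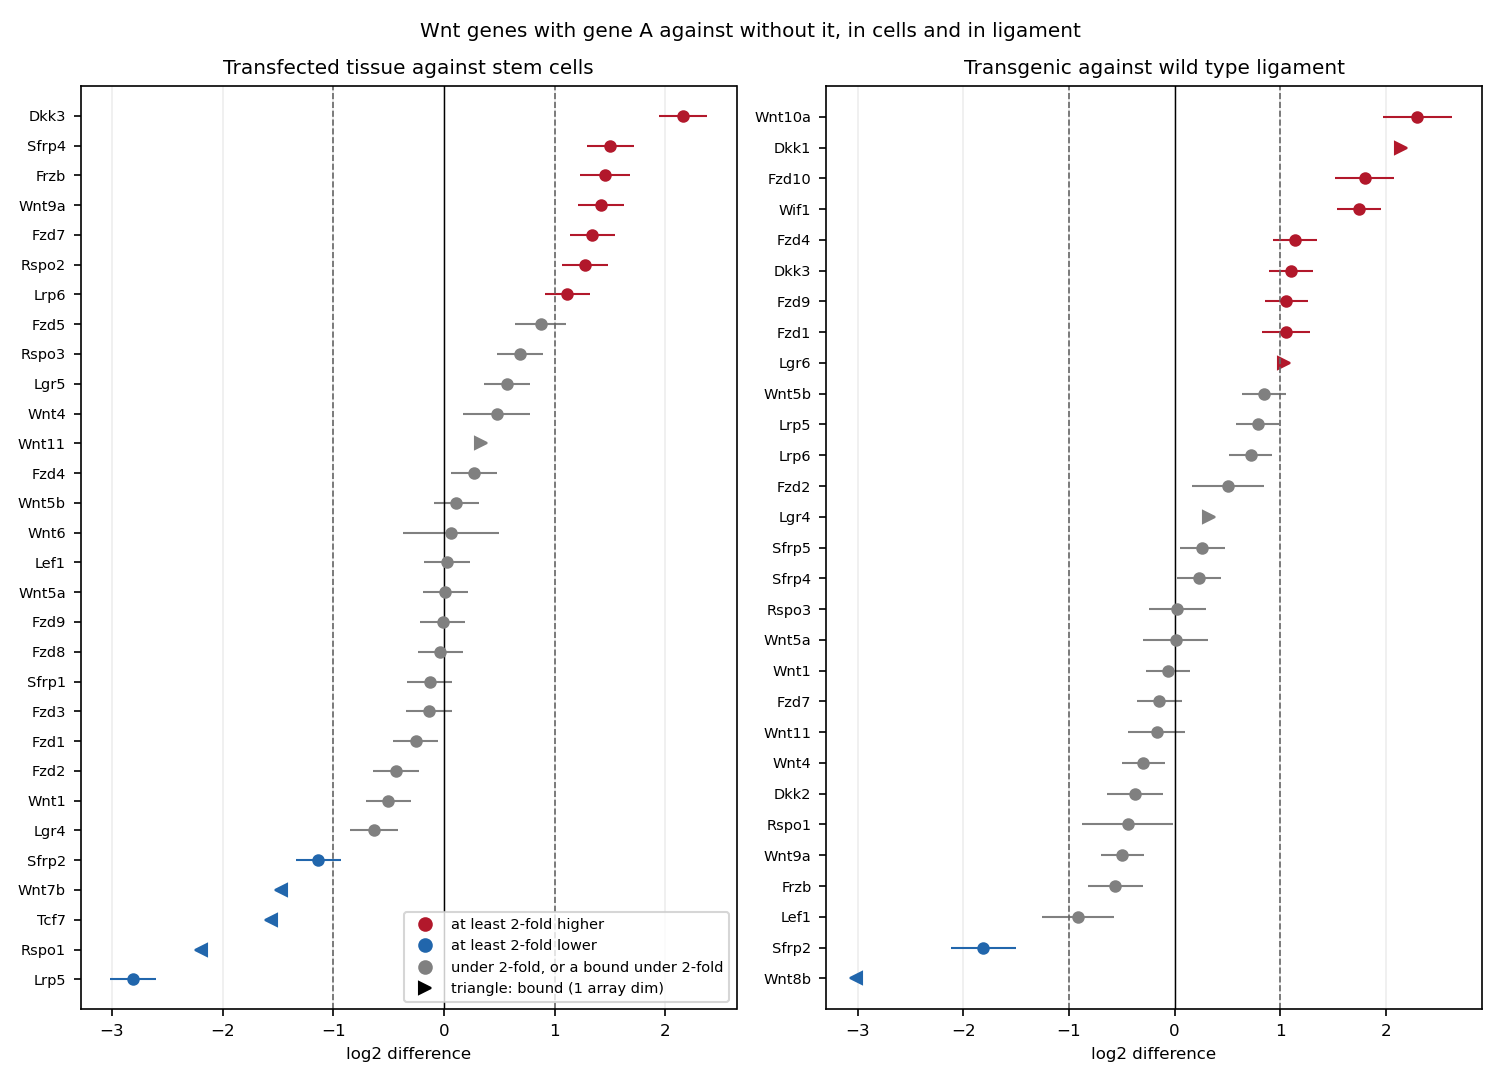
Log2 difference or bound of each member that has one, transfected tissue minus stem cells in one panel and transgenic minus wild type ligament in the other, with bars for the scanner software's error, triangles for bounds and dashed lines at 2-fold. Lrp5 stands at -2.81 in the first and 0.79 in the second, and Dkk3 at 2.16 and 1.10.

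In the wider pathway, none of 32 signal transduction genes passed 2-fold between the ligaments, and Ctnnb1 differed by 0.05. Over all genes compared, 13.0% passed 2-fold, 5.98% higher and 7.01% lower in transgenic ligament. The counts of the next lists are too small to be set apart from these shares. Of 19 secretion and surface genes compared, 2 were higher in transgenic ligament: Celsr1, a planar polarity cadherin, 2.46-fold, and Lrp4 at least 2.46-fold. Of 18 feedback and target genes compared, 2 were higher and 2 lower. Ccn4, a matricellular protein induced by Wnt1, was 4.23-fold higher and Tbx3 2.32-fold higher, while Cdx1 was at least 8.93-fold and Bambi at least 2.87-fold lower.

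Wild type ligament and stem cells were set against each other for the distance between the tissue and the cells. After scaling, the ligament had more of several ligands and of Wif1, Sfrp5, Sfrp4, Frzb, Dkk2 and Dkk3. The stem cells had more of R-spondins 2 and 3, of Fzd1, Fzd2, Fzd3 and Fzd8, and of Sfrp1 and Sfrp2. Of 36 members compared, 14 were higher in the ligament (38.9%, against 32.7% of the 18628 genes compared) and 11 were lower (30.6%, against 23.1%). The members' shares lay somewhat above those of all genes, which with few members was not tested. Over both directions the shares were 69.4% and 55.8%. The 19 members measured on both arrays had a median of -0.07, against 0.19 over 13460 genes.

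Wnt ligands were higher in 6 of 10 cases and lower in 1. Wnt4, known from kidney and ovary development, had 2.05 in wild type ligament and -4.87 in the stem cells, 121-fold higher (log2 6.92 ± 0.27; probe at chr4:136855342-136855401, plus strand, mm9). Its second probe, dim in the stem cells, gave a bound of 7.02 on the log2 scale.

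Wnt9a had 0.91 in wild type ligament and -2.31 in the stem cells, 9.31-fold higher in the ligament (log2 3.22 ± 0.21). Wnt1, at 0.19 and -1.19, was 2.61-fold higher by 1 of its 2 probes, but only after scaling. Its signal before scaling was 312 in the ligament and 462 in the stem cells. Wnt11, at -2.16 in the ligament and dim in the stem cells, was at least 11.2-fold higher, and Wnt8b, by 1 spot at -0.82, at least 28.2-fold. Wnt5a went the other way, with -2.40 in the ligament and -0.47 in the stem cells, 3.82-fold lower in the ligament (log2 -1.93 ± 0.28).

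R-spondins and Frizzled genes held several of the large differences in favour of the stem cells. Rspo2, dim in the ligament at -5.56 and at 5.15 in the stem cells, was at least 360-fold lower in the ligament. Rspo3 had -2.02 in the ligament and 3.11 in the stem cells, 35.0-fold lower (log2 -5.13 ± 0.25). Fzd2 had -3.00 and 3.94 in that order, 123-fold lower (log2 -6.95 ± 0.32; probe at chr11:102467613-102467672, plus strand, mm9), with a second probe that was dim in the ligament and gave a bound of -0.91. The ligament value of the first probe lay close to the detection limit of -3.34.

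Fzd1 had -1.61 in the ligament and 2.79 in the stem cells, 21.1-fold lower in the ligament (log2 -4.40 ± 0.22). Fzd8 (0.90 in the stem cells) and Fzd3 (-0.66 in the stem cells), both dim in the ligament, were at least 18.9-fold and at least 6.43-fold lower there, and Fzd10, at -2.73 in the ligament, was at least 7.51-fold higher there. Fzd4, Fzd7 and Fzd9 were within 2-fold by their brightest probes, as was Lef1 (-0.39 ± 0.26), although the second Fzd7 probe gave a bound of -2.37. Frizzled genes were thus lower in 4 of 9 cases and higher in 1.

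Lrp5 was 2.32-fold lower and Lrp6 2.70-fold higher in wild type ligament than in the stem cells, though the second Lrp6 probe differed by -0.10. Before scaling, the Lrp6 signal was 1021 in the ligament and 1461 in the stem cells. The secreted inhibitors fell into 2 sets. Wif1 and Sfrp5, dim in the stem cells, were at least 32.6-fold and at least 31.1-fold higher in the ligament, Dkk2 was at least 13.0-fold higher, Sfrp4 was 9.21-fold higher, Dkk3 was 7.48-fold higher and Frzb 3.85-fold higher. Sfrp2, at -1.47 in the ligament and 4.66 in the stem cells, was 69.9-fold lower (log2 -6.13 ± 0.22), and Sfrp1, dim in the ligament, was at least 27.0-fold lower. All 19 skeletal muscle markers compared were higher in the ligament (median 12.90), as were 13 of 13 epidermal markers, while 9 of 10 stromal markers were lower (median -2.00); their part in these values was not tested.

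The last comparison set the transfected tissue against wild type ligament. It shares the tissue array and the wild type array with the comparisons already given, so the values are set out as further readings of the same arrays. Of 34 members compared, 12 were higher in the tissue (35.3%, against 22.0% of the 18463 genes compared) and 13 were lower (38.2%, against 34.0%); both directions came to 73.5% and 55.9%. The tissue had more of 6 of 9 Frizzled genes and less of 6 of 9 ligands. The 19 members measured on both arrays had a median of -0.32, against -0.28 over 13413 genes. Of 12 ligament and tendon markers, 3 were higher and 7 lower in the tissue (median -0.94). All 19 skeletal muscle markers compared were lower (median -13.87), as were 13 of 13 epidermal and 13 of 13 neutrophil markers. Of 10 stromal markers, 6 were higher and 1 lower (median 1.85). The part of these tissues in the values was not tested.

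Fzd2 had 3.51 in the tissue and -3.00 in wild type ligament, close to that array's detection limit, 91.3-fold higher in the tissue (log2 6.51 ± 0.32). Rspo2, dim in the ligament, was at least 871-fold higher, and Rspo3 was 56.4-fold higher. Sfrp2 was 31.8-fold higher in the tissue, Fzd1 17.7-fold and Wnt5a 3.85-fold. Sfrp1, Fzd8 and Fzd3, dim in the ligament, were at least 24.7-fold, 18.5-fold and 5.85-fold higher. All of these were also higher in the stem cells than in wild type ligament. Fzd7, at 0.86 in the tissue and -0.54 in the ligament, was 2.65-fold higher, and Fzd4, at 2.92 and 1.92, was 2.00-fold higher, within 1 error of the threshold.

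In the other direction, Wnt4 had -4.39 in the tissue and 2.05 in wild type ligament, 87.3-fold lower in the tissue (log2 -6.45 ± 0.24). Wnt11 was 8.85-fold lower and Wnt9a, at -0.90 and 0.91, was 3.49-fold lower. Wnt1, at -1.69 in the tissue and 0.19 in the ligament, was 3.70-fold lower by 1 of its 2 probes. Wif1, Sfrp5, Wnt8b and Dkk2, dim in the tissue, were at least 30.5-fold, 29.1-fold, 26.4-fold and 12.2-fold lower. Sfrp4 was 3.25-fold lower and Lrp5 3.02-fold lower, while Lef1 (0.42 ± 0.26), Frzb (-0.49 ± 0.24), Dkk3 (-0.75 ± 0.21) and Lrp6 (-0.32 ± 0.20) were within 2-fold. Before scaling, the signals of Wnt9a, Wnt1, Sfrp4 and Lrp5 were higher in the tissue, at 1089, 626, 732 and 2006. In wild type ligament they were 511, 312, 321 and 815. The signals of Wnt4 and Wnt11 were lower in the tissue before scaling as well.

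**Figure D3:**
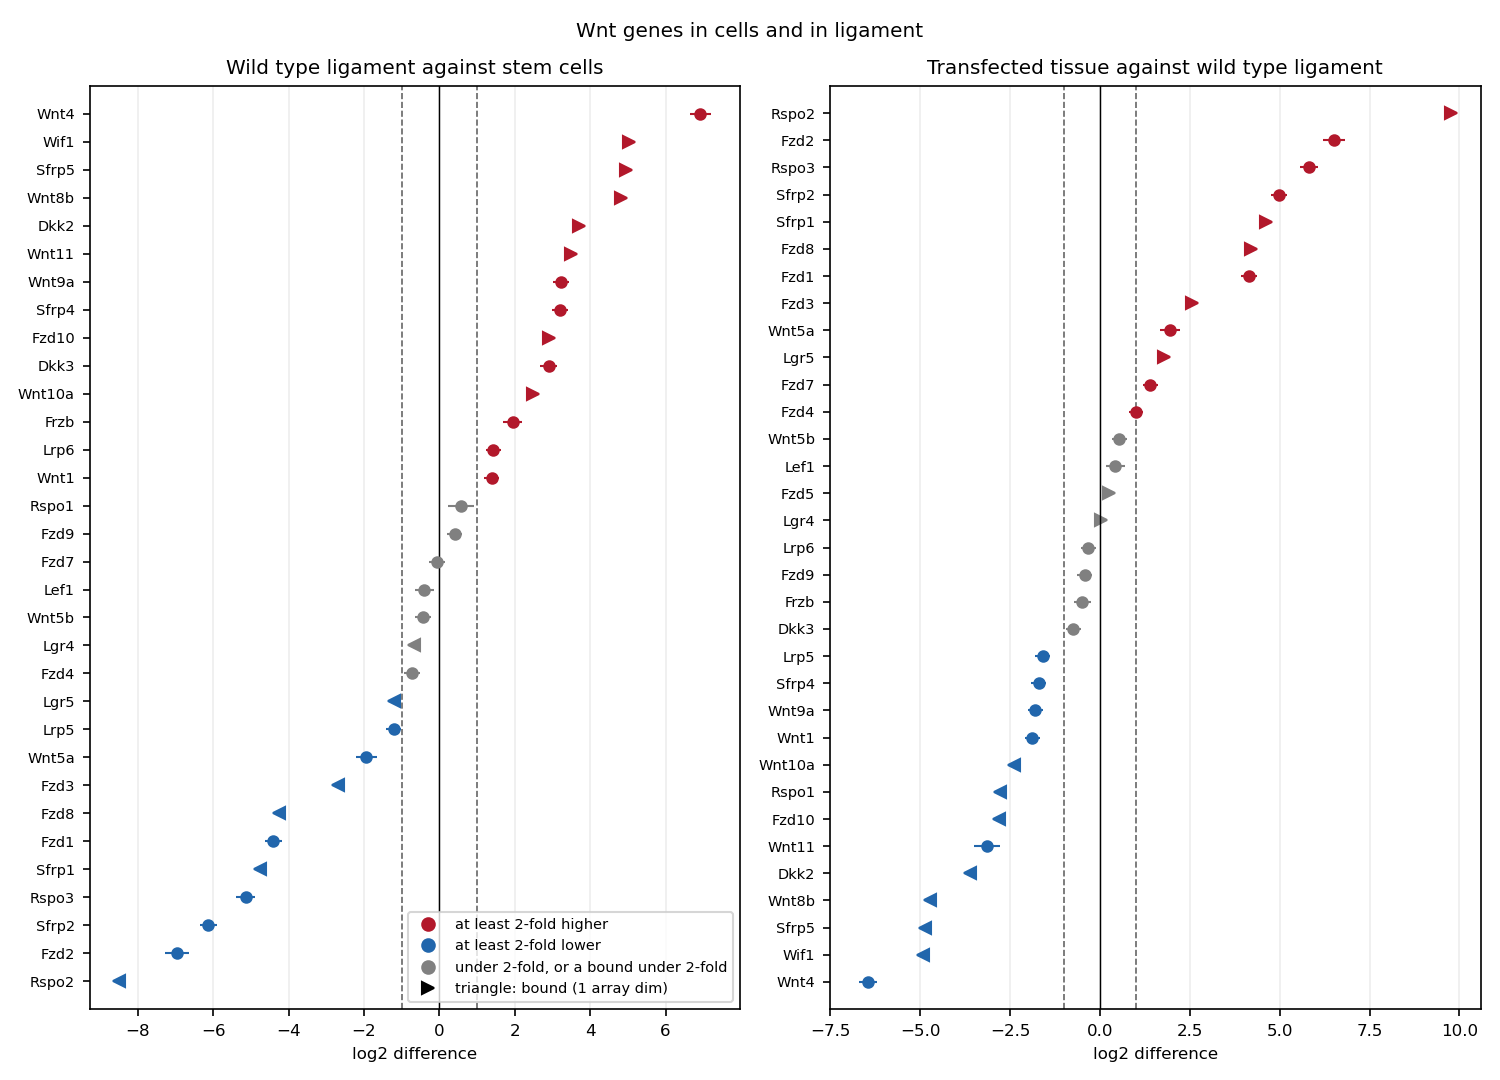
Log2 difference or bound of each member that has one, wild type ligament minus stem cells in one panel and transfected tissue minus wild type ligament in the other, with bars for the scanner software's error, triangles for bounds and dashed lines at 2-fold. Wnt4 stands at 6.92 in the first and -6.45 in the second, and Fzd2 at -6.95 and 6.51.

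The other genes of the pathway passed 2-fold between wild type ligament and the stem cells somewhat more often than all genes in each list. Over all genes the share was 55.8%, with 32.7% higher in the ligament and 23.1% lower. The lists are small and this was not tested. Of 32 signal transduction genes, 9 were higher in the ligament and 13 lower. Of 20 feedback and target genes compared, 3 were higher in the ligament and 10 lower, among them Ccn5 (184-fold lower) and Ccnd1, a cyclin of G1 phase (138-fold lower). Tnfrsf19 was at least 32.6-fold higher. Of 20 secretion and surface genes, 4 were higher and 8 lower. Wls, the carrier that brings Wnts to the cell surface, was 12.4-fold lower and Adgra2, a co-receptor for Wnt7 ligands, 48.4-fold lower, while the glypican Gpc3 was at least 64.5-fold higher. The transfected tissue against wild type ligament gave 23.4-fold higher Wls, 36.5-fold higher Adgra2 and 75.6-fold higher Ccnd1. Of 16 cell cycle genes, 14 were lower in wild type ligament than in the stem cells (median -3.60) and none was higher. Of 15 compared between the transfected tissue and wild type ligament, 3 were higher in the tissue and 1 was lower (median 0.29). The part of cell division in the values of Ccnd1 and the other target genes was not tested.

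For 13 members there were 2 probes, and in no comparison did both probes of a gene pass 2-fold in opposite directions. Both probes were measured for 5 genes in the transfected tissue against the stem cells, for 2 in transgenic against wild type ligament, and for 1 in each of the other comparisons. Lrp6 was measured by both in all comparisons, and its 2 probes gave 1.11 and 0.01 in the transfected tissue against the stem cells, and 0.72 and 1.10 in transgenic against wild type ligament. The other 38 members rest on 1 probe, with 1 spot on each array.

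**Figure D4:**
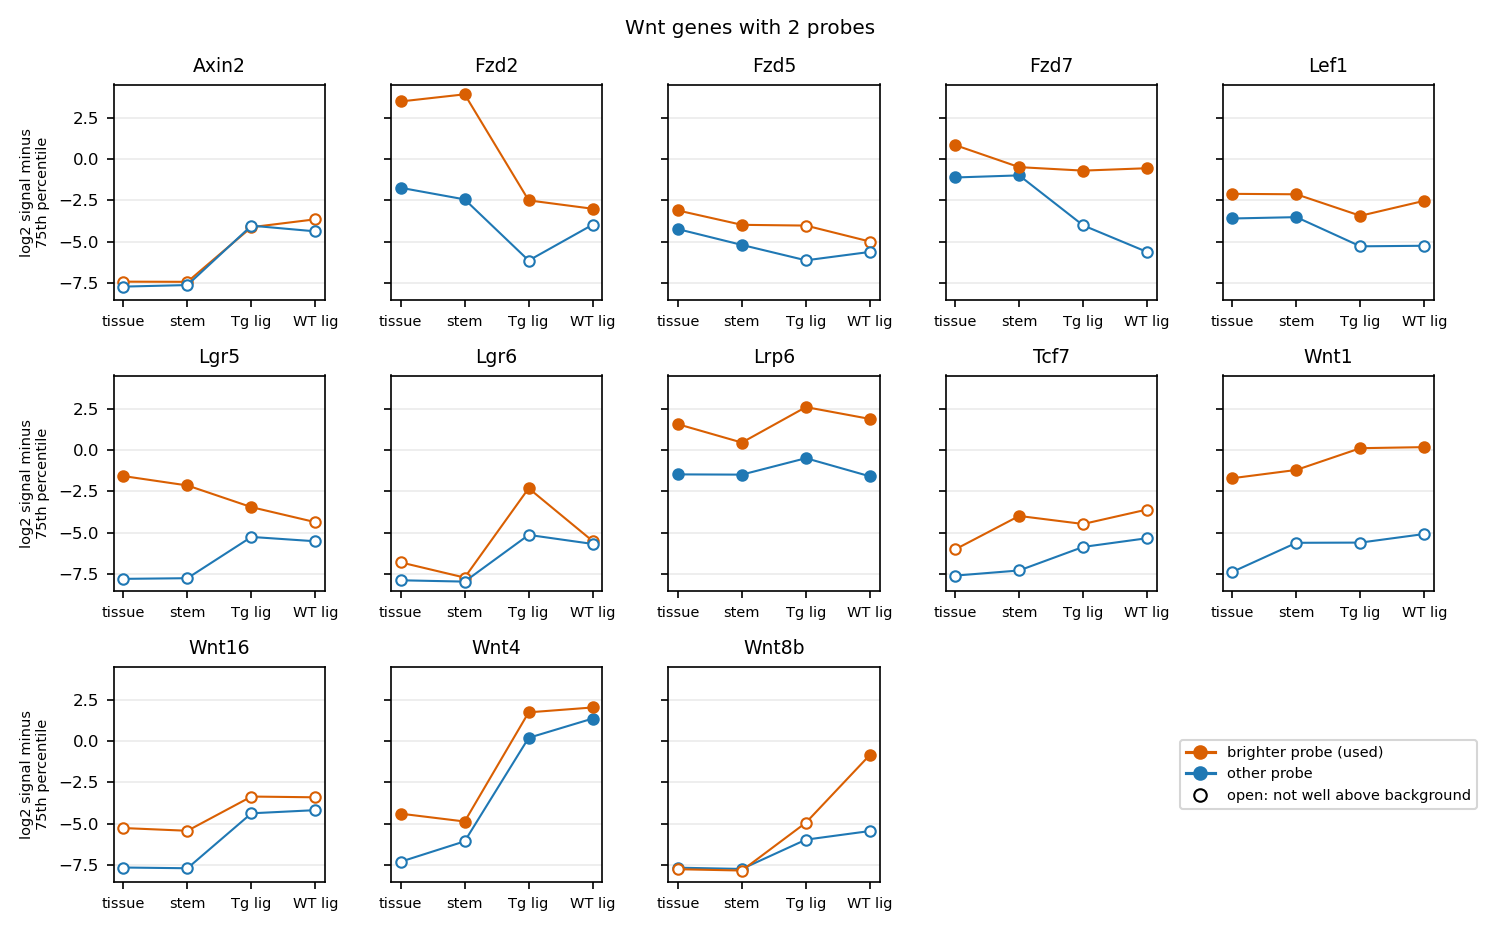
Normalised signal (log2, vertical axis) on the 4 arrays by the brighter probe and by the other probe of the 13 members with 2 probes, with open points for spots not well above background and lines joining the points of a probe. The brighter Fzd7 probe differs by 1.34 between the transfected tissue and the stem cells, and the other by -0.13.

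How far the calls depended on the scaling was read from 6 alternative ways to make the values. Of 12 members called in the transfected tissue against the stem cells, 7 were called alike in all 6, and of 11 called in transgenic against wild type ligament, 5 were. Lrp5 ranged from -2.86 to -2.69 and Dkk3 from 1.53 to 2.28 in the transfected tissue against the stem cells. Between the ligaments Wif1 ranged from 1.45 to 1.85 and Wnt10a from 1.21 to 2.84, whereas Sfrp2 ranged from -2.35 to -0.83 and was not called with the model-based background correction. The bound of Dkk1 ranged from 1.04 to 2.65 and Fzd10 from 0.92 to 2.23, and in the transfected tissue Frzb ranged from 0.77 to 1.58 and the bound of Rspo1 from -2.21 to -1.40. Between wild type ligament and the stem cells Wnt4 ranged from 5.30 to 7.19, Fzd2 from -7.52 to -4.24, Wnt5a from -2.43 to -1.10 and the bound of Wif1 from 3.28 to 5.03, all with the same call.

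**Figure D5:**
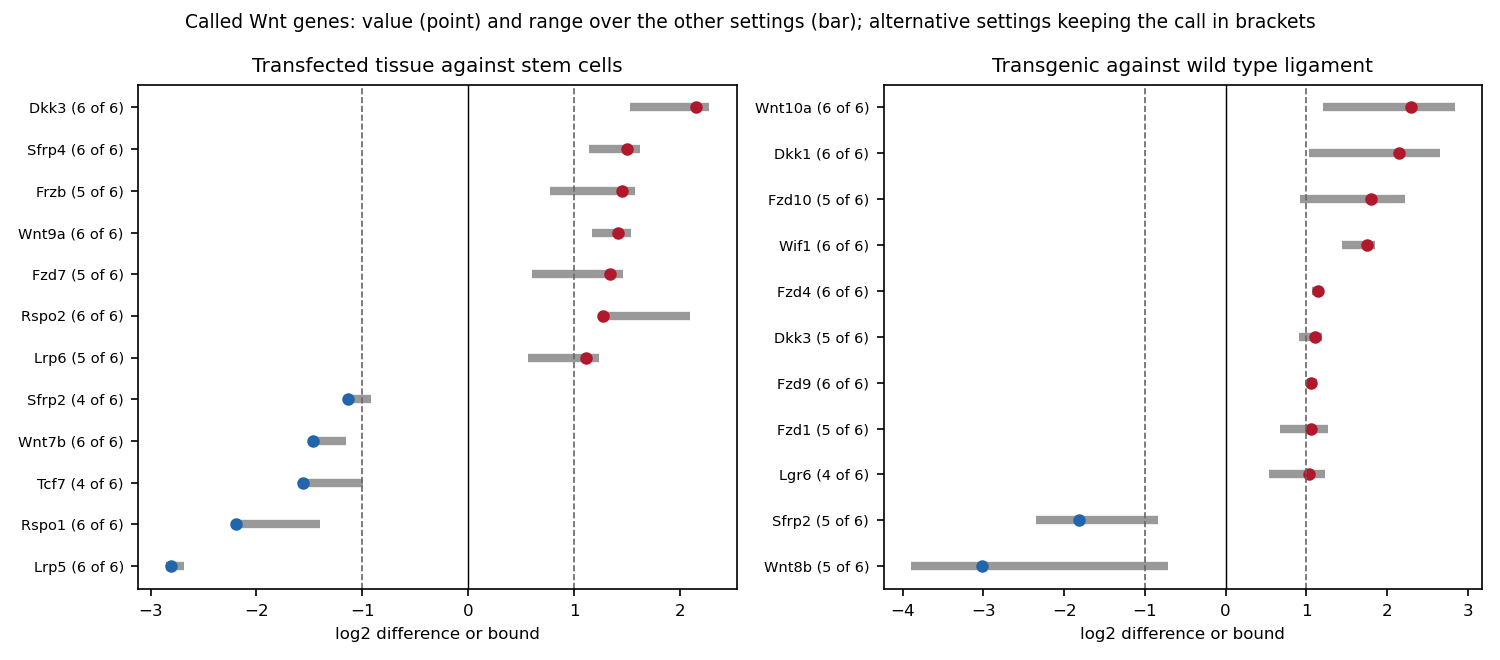
Log2 difference (point) and its range over the reported and 6 alternative ways to make the values (grey bar), on the horizontal axis, for the members called with A, in the transfected tissue against the stem cells and in transgenic against wild type ligament, with dashed lines at 2-fold and, in brackets, how many of the 6 keep the call. The range of Lrp5 in the first comparison, -2.86 to -2.69, stays past 2-fold, and that of Sfrp2 in the second, -2.35 to -0.83, crosses it.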

How the data were processed

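Each of 4 mouse RNA samples was put by the authors on 1 Agilent Cy3 array, on 1 slide with 1 scan time. Per the file headers, the scanner files hold each spot's intensity as processed signal, background-subtracted and on a linear scale, from Feature Extraction 10.7.1.1; the submitters' processing notes name 9.5.1.1. The deposited value table holds intensity too and was used as an alternative. Probe positions are those of the files (mm9), and promoters are RefSeq's (GRCm38.p6).

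Outlier spots (155 to 281 per array, 0 of them members') were left out. Log2 processed signal was centred on each array's 75th percentile, and each gene was read from the probe brightest on average across the arrays. Probes were named through RefSeq accessions (26761 of 39429 probes, 60 of the 64 member probes) or else by the files' symbols. A gene was compared when well above background on at least 1 of the arrays. Against a dim array the fold is a bound: the dim value is the higher of its own signal and that array's lowest signal well above background, which is written as at least N-fold. Calls start at 2-fold. The number of arrays limits the precision; with 1 per group no test or p-value was possible.

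In each comparison values or folds were given for the measured members past 2-fold, up to the 8 largest in a direction, and the 4 largest bounds. Axin2, Lef1 and Tcf7 were described whatever their values, and up to 4 genes of each other pathway list were named. Members and lists were chosen with earlier results of these data known. The alternatives were quantile normalization, limma's normexp correction (offset 50), centring on probes seen on every array, the deposited values, the mean of a gene's probes, only genes detected on both arrays (or dim genes at their bound, for medians), outlier spots kept, and 3-fold. The procedure was tested on simulated data, with changes larger than 2-fold in genes well above the detection limit only. It does not check calls near 2-fold, changes of weak genes or bounds. Python 3.11.15, numpy 2.4.6, pandas 2.3.3, matplotlib 3.10.9, R 4.3.3 and limma 3.58.1 were used.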

Additional observations from a re-analysis of the deposited data

Results flagged for a closer look

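Members were looked for that differed in opposite directions with A in cells and in ligament, at least 1 of them past 2-fold and each beyond 2 SDs of the repeated-spot noise. Fzd1 (-0.26 and 1.05), Fzd7 (1.34 and -0.15) and Fzd9 (-0.01 and 1.06) also had opposite signs, but 1 of their differences lay within that noise. Lrp5, the LRP co-receptor known for its effect on bone mass, was lower in the transfected tissue than in the stem cells (log2 -2.81) and higher in transgenic than in wild type ligament (0.79, within 2-fold). Wnt9a was higher in the transfected tissue (1.42) and lower in transgenic ligament (-0.50), and Frzb gave 1.45 and -0.56 in the same order. With 1 array per group, the difference between these pairs was not tested. Strain and origin also differ between the pairs.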

How the results depend on the processing

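No paired analysis was possible because each group had 1 array. No called member changed sign under any alternative that gave it a value. In the transfected tissue against the stem cells, calls went to 3 (1 higher, 2 lower) at 3-fold, and lower calls to 2 when genes had to be detected on both arrays. Between the ligaments, calls went to 6 with normexp (5 higher, 1 lower) and to 6 at 3-fold (4 higher); lower calls were 1 with the mean of a gene's probes and 1 when detected on both arrays. In wild type ligament against the stem cells, requiring both arrays left 13 calls, 7 higher and 6 lower; in the transfected tissue against wild type ligament it also left 13, 7 higher and 6 lower. The median of the members in wild type ligament against the stem cells was 0.23 with normexp, -0.43 with the mean of probes and 0.17 with dim genes at their bound. In the transfected tissue against wild type ligament it was -0.042 with quantile normalization, -0.19 with normexp, -0.19 with centring on probes detected on all arrays, -0.043 with the deposited table and -0.10 with the mean of probes. The cause of these shifts was not tested, except that requiring both arrays removes the bounds and 3-fold the smaller differences. The median of all genes moved with quantile normalization, to -0.09 in wild type ligament against the stem cells and to 0.12 in the transfected tissue against wild type ligament, where 5171 genes were then higher and 5109 lower, against 4059 and 6270. In the transfected tissue against the stem cells normexp gave 1114 genes higher and 2122 lower, against 2019 and 2308. The mean of probes dropped Fzd7, Lrp6 and Tcf7 in the transfected tissue against the stem cells, and Lgr6 and Wnt8b between the ligaments. Normexp dropped the calls of Frzb and Tcf7 in the first of these comparisons, and of Dkk3, Fzd1, Fzd10, Lgr6 and Sfrp2 between the ligaments. Lef1 was gained as lower between the ligaments with quantile normalization and the deposited table. In the comparisons with wild type ligament on 1 side and cells on the other it was uncalled as reported and its sign changed, over -1.07 to 0.32 against the stem cells and -0.45 to 1.04 for the transfected tissue. Quantile normalization and the deposited table dropped Sfrp2 in the transfected tissue against the stem cells.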

Other observations

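The Dishevelled genes, which carry the signal from Frizzled into the cell, did not differ alike. Dvl1 was 12.9-fold higher in wild type ligament than in the stem cells and Dvl2 was 7.35-fold lower. In the transfected tissue against wild type ligament, which uses the same ligament array, Dvl2 was 13.4-fold higher, Dvl3 12.1-fold lower and Dvl1 7.84-fold lower. Tcf7l1, a mostly repressive factor of the Lef/Tcf family, was 9.83-fold lower in wild type ligament than in the stem cells.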
